A study of Mus musculus with 12 samples.

Results

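The integrated stress response and the unfolded protein response of the sciatic nerve were followed through 10 genes out of the 43432 genes of the count table: the transcription factor genes *Atf4*, *Atf5*, *Ddit3* and *Xbp1*, the ATF4-dependent genes *Ddit4*, *Trib3*, *Asns*, *Chac1* and *Sesn2*, and the ER chaperone gene *Hspa5*. They were chosen by name as known members of these pathways and not by a rule on their measured values, though earlier results of these data were known. RNA sequencing of polyA-selected RNA was performed on 12 sciatic nerve libraries, 1 per mouse, from mice aged 1 month. The 3 groups of 4 mice were WT controls (*Mtmr2* wt/wt, no treatment), *Mtmr2* KO mutants (*Mtmr2* -/-) and niacin-treated *Mtmr2* KO mutants. The KO mutants without niacin, called untreated KO below, had no treatment per the labels and vehicle per the results text of the study. Treated mutants were injected i.p. with niacin (120 mg/kg) between P10 and P21 and were then gavaged with Niacin-SR, a slow release form, up to P30. *Mtmr2* encodes a phosphoinositide phosphatase, and its constitutive loss in all cells is a mouse model of the demyelinating neuropathy CMT4B1. There was no niacin-treated WT group, each group held males and 1 female, and the sex of single mice was not in the labels. The questions were whether the stress genes differed between mutant and WT nerves and whether niacin moved them in mutant nerves.

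Both pathways answer to protein synthesis under strain. In the integrated stress response, kinases that sense amino acid shortage, viral RNA, haem shortage or ER stress phosphorylate the translation factor eIF2 alpha, general translation slows, and the mRNAs of *Atf4*, *Atf5* and *Ddit3* are translated better, so the mRNA level of *Atf4* is only part of its control. In the unfolded protein response, the ER sensors PERK, IRE1 and ATF6 raise chaperones such as BiP, the product of *Hspa5*, and IRE1 splices *Xbp1* mRNA, which a count per gene cannot show. Myelinating Schwann cells make large amounts of membrane and secretory protein, and this response is known in models of demyelinating neuropathy with misfolded myelin protein.

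All 10 genes have a promoter in the RefSeq table of GRCm38.p6, from 250 bases before to 50 bases after the annotated start, and 3 of the genes, *Trib3*, *Asns* and *Chac1*, hold the letters TGATGNAA on either strand, the core of the C/EBP-ATF response element through which ATF4 acts. Of all 32851 promoters in the table, 3.97% held it. The ER stress response element, CCAAT and CCACG separated by 9 bases, was searched on both strands, was found in 1 of the 10 genes, *Hspa5*, and was held by 0.119% of all promoters. No overlap of the 2 motifs was found in these promoters. The matched stretches are shown because they mark which of the genes carry the letters of each arm, in the direction of the gene and with the matched letters in capitals.
*Trib3*, chr2:152344028-152344057, minus strand: ttagctcaggtTTaCATCAgccgggcgggg
*Chac1*, chr2:119351038-119351067, plus strand: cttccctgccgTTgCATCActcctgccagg
*Asns*, the 250 bases before the start, chr6:7693210-7693459, minus strand: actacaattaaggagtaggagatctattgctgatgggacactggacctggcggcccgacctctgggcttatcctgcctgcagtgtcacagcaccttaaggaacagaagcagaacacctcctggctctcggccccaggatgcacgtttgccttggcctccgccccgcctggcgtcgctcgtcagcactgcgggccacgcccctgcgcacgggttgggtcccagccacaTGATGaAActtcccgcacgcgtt
*Hspa5*, the 250 bases before the start, chr2:34771840-34772089, plus strand: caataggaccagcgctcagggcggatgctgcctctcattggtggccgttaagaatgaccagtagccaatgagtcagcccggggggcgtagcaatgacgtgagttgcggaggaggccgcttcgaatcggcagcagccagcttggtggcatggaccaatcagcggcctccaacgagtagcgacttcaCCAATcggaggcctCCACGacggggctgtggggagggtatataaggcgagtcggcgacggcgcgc
A match is a run of letters and not a shown binding site, and the promoters of the other genes lacked these letters in this window only.

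The libraries held 20763951 to 33191106 counted reads. The range was 26653828 to 28390961 in WT and 20983641 to 22935378 under niacin, so every treated library was shallower than every WT library. Levels are given as CPM, counts scaled to the library total after TMM normalisation (counts per 1e6 reads), and the counts behind *Trib3* and *Chac1*, the lowest of the 10 genes, ran from 25 to 116 and from 19 to 74 per library. *Mtmr2* was at 128 to 161 CPM in WT, and at 71.6, 84.7, 143 and 69.5 CPM in the libraries labelled KO 4501, 4502, 4503 and 4504, and at 66.8 to 73.5 CPM under niacin. The library labelled KO 4503 was thus in the WT range, against its genotype label, and every KO value below includes it unless it is said to be left out. Myelinating Schwann cell markers summed to 93668 to 117464 CPM in WT, 93943 to 127788 CPM in KO and 66053 to 106561 CPM in niacin-treated KO. The trend of gene levels with GC content differed between libraries. Per 10 points of GC, the log2 deviation from the mean library was 0.09 to 0.18 in WT and -0.25 to -0.03 under niacin. In the libraries labelled KO 4501 to 4504 it was 0.17, -0.38, 0.17 and 0.06. The source of these trends was not tested, and a correction of each library for GC content and transcript length was added as an alternative.

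None of the 10 genes passed the test in any of the 3 comparisons. As compared with WT, 0 of 10 were called in KO nerves (edgeR quasi-likelihood test, Benjamini-Hochberg adjusted p under 0.05) against 0.267% of the 17257 genes tested, and 3 of the 10, *Ddit4*, *Trib3* and *Xbp1*, had an unadjusted p under 0.05 beside 17.2% of all genes. As compared with untreated KO, 0 of 10 were called under niacin against 1.43% of all genes, with 1, *Ddit4*, at an unadjusted p under 0.05 beside 20.1%. Niacin-treated KO nerves against WT gave 0 of 10 against 0.0% of all genes, with 2, *Trib3* and *Sesn2*, at an unadjusted p under 0.05 beside 24.7%. The median log2 fold change of the 10 genes was -0.05, -0.09 and 0.01 in these comparisons, beside 0.03, -0.04 and 0.02 over all genes tested. In KO against WT, DESeq2 over all libraries and limma-voom also called 0 of 10, against 3.71% and 0.626% of all genes. In treated against untreated KO, DESeq2 called 0 of 10 against 6.22%. The comparisons share groups, so their values are not independent of each other.

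Without the library labelled KO 4503, edgeR called 0 of 10 in each comparison, against 0.0344%, 0.0746% and 1.74% of all genes. The KO to WT log2 fold changes without it were 0.095 for *Atf4*, -0.02 for *Atf5*, 0.46 for *Ddit3* and 0.36 for *Xbp1* among the factors, and 0.08 for *Hspa5*. Among the ATF4-dependent genes they were 0.29 for *Ddit4*, -1.03 for *Trib3*, 0.27 for *Asns*, -0.73 for *Chac1* and -0.61 for *Sesn2*. The largest move was that of *Ddit4*.

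For niacin-treated KO against WT, the calls differed between fits. Fitted on those 2 groups alone, edgeR called *Trib3* and *Sesn2* lower and *Asns* higher in treated mutants, 3 of 10, against 33.9% of all genes. The same 3 were called by DESeq2 on the 2 groups against 36.9% of genes, by limma-voom with sample weights against 42.4%, by edgeR without KO mouse 4502 against 21.6%, and by edgeR without the libraries labelled KO 4502 and 4503 against 29.6%. DESeq2 over all 12 libraries called 2 of 10, *Trib3* and *Sesn2*, against 7.0% of genes. These shares of members are close to the share of all genes where that share is large, and 2 of 10 is above it for DESeq2 over all libraries.

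**Figure D1:**
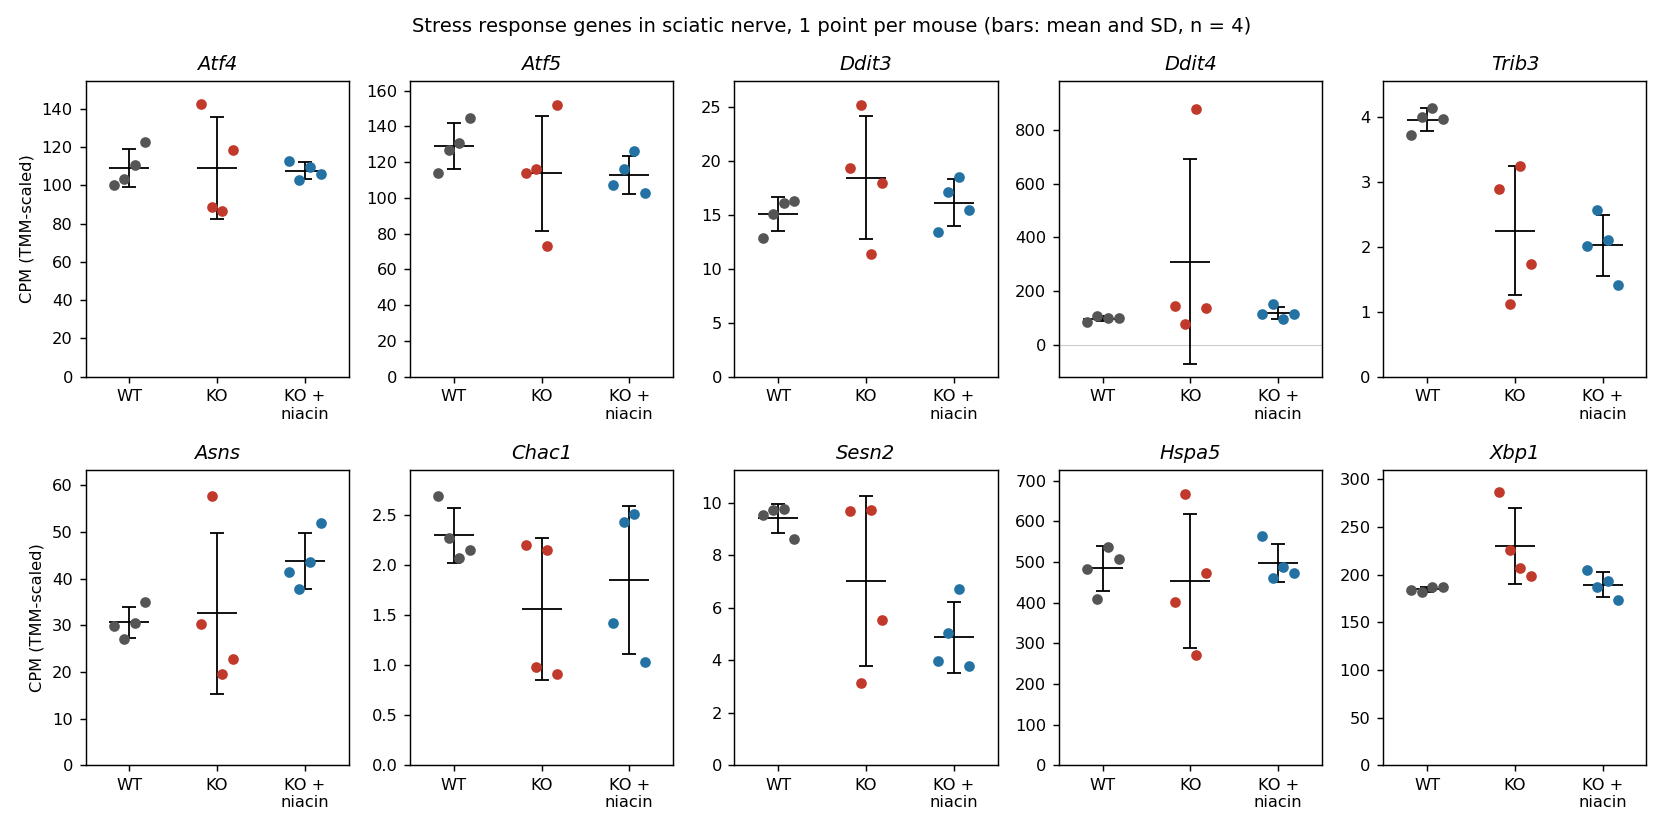
CPM of each of the 10 genes (y axis, linear) in WT, *Mtmr2* KO and niacin-treated *Mtmr2* KO nerves (x axis), 1 point per mouse, with the group mean and SD (n = 4). KO points spread more widely than WT points for every gene, *Ddit4* has 1 KO mouse at 878 CPM, and *Trib3* lies lower in all KO and all treated mice than in WT.

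Per kilobase of exon, the order of levels over the 12 libraries was *Hspa5* (113 CPM per kb), *Ddit4* (100.4), *Xbp1* (62.0), *Atf5* (59.5), *Atf4* (46.1), *Asns* (13.04), *Ddit3* (9.69), *Sesn2* (2.04), *Trib3* (1.29) and *Chac1* (1.16). The ranges of neighbours over libraries overlapped, other than *Atf4* over *Asns* and *Ddit3* over *Sesn2*. Without the library labelled KO 4503, *Ddit4* was at 64.1, *Xbp1* at 61.8 and *Atf5* at 61.6 CPM per kb. In WT *Ddit4* was at 56.1 CPM per kb.

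Among the regulators, *Atf4* (ENSMUSG00000042406, chr15:80255184-80257541, plus strand) encodes the bZIP factor that carries the integrated stress response to its targets. It stood at 100.3, 103, 110.4 and 123 CPM in WT mice 4497 to 4500, at 143, 88.7, 86.6 and 119 CPM in the libraries labelled KO 4501 to 4504, and at 113, 103, 109.7 and 106 CPM in treated KO mice 4505 to 4508. The KO values reached both above and below all WT values, and the group means were the same, 109 ± 10.03 CPM in WT and 109 ± 26.7 CPM in KO (SD, n = 4). Its log2 fold change was 0.00 ± 0.16 (SE) in KO against WT, with a 95% interval of -0.30 to 0.30, and -0.02 in both comparisons of treated mutants.

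*Atf5*, a related bZIP factor that is also controlled by translation, was at 114, 127, 131 and 145 CPM in WT. In KO it was at 114, 116, 73.1 and 152 CPM, with the library labelled KO 4503 lowest and KO mouse 4504 highest of all 12 libraries. Under niacin it was at 107, 116, 126 and 102.5 CPM, within or just under the WT range. Its log2 fold changes were -0.18, -0.01 and -0.19 in KO against WT, treated against untreated KO, and treated KO against WT. *Atf5* (chr7:44812256-44816658, minus strand) overlaps *Il4i1* and 1 more gene on the other strand. *Ddit3* overlaps *Mars* and 2 more genes, of which 1, protein-coding, lies on its own strand and would not be separated by strand. The sources do not say whether counting used strand, and part of these counts could belong to the neighbours.

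*Ddit3*, which encodes the pro-apoptotic factor CHOP, stood at 12.9, 15.1, 16.2 and 16.3 CPM in WT and at 19.4, 25.2, 11.4 and 18.0 CPM in KO. Under niacin it was at 13.5, 17.2, 18.5 and 15.5 CPM. KO mice 4501, 4502 and 4504 were above every WT mouse and the library labelled KO 4503 was below every one. The log2 fold change in KO against WT was 0.29 ± 0.20 (SE; edgeR adjusted p = 0.476) and 0.02 with the GC and length correction. For treated KO against WT, its log2 fold change was 0.09 and changed sign to -0.31 with that correction.

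*Xbp1* (ENSMUSG00000020484, chr11:5520659-5525893, plus strand) encodes the factor that IRE1 activates by splicing. It stood at 184, 181, 187 and 187 CPM in WT, a spread of 2.54 CPM (SD), and at 287, 226, 207 and 199 CPM in KO. Under niacin it was at 204, 187, 193 and 174 CPM. All 4 libraries labelled KO were above all 4 WT libraries, and the treated mice overlapped both groups. The KO to WT log2 fold change was 0.31 ± 0.13 (SE), or 1.24-fold (edgeR adjusted p = 0.246; exact permutation p = 0.0286, two-sided, the smallest that 70 ways of drawing 4 of 8 mice can give). Treated against untreated KO gave -0.28 ± 0.13 (edgeR adjusted p = 0.263; exact permutation p = 0.0571), and treated KO against WT gave 0.04. With the GC and length correction these were 0.35, -0.26 and 0.09.

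Non-overlap of 2 groups of 4 was not rare in these data. In KO against WT the groups did not overlap for 2 of the 10 genes, *Xbp1* higher and *Trib3* lower, against 9.32% of all genes tested. In treated against untreated KO this held for 0 of 10 against 7.01%. In treated KO against WT it held for 3 of 10, *Asns* higher and *Trib3* and *Sesn2* lower, against 31.4% of all genes. The share of members was near that of all genes in the last of these.

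**Figure D2:**
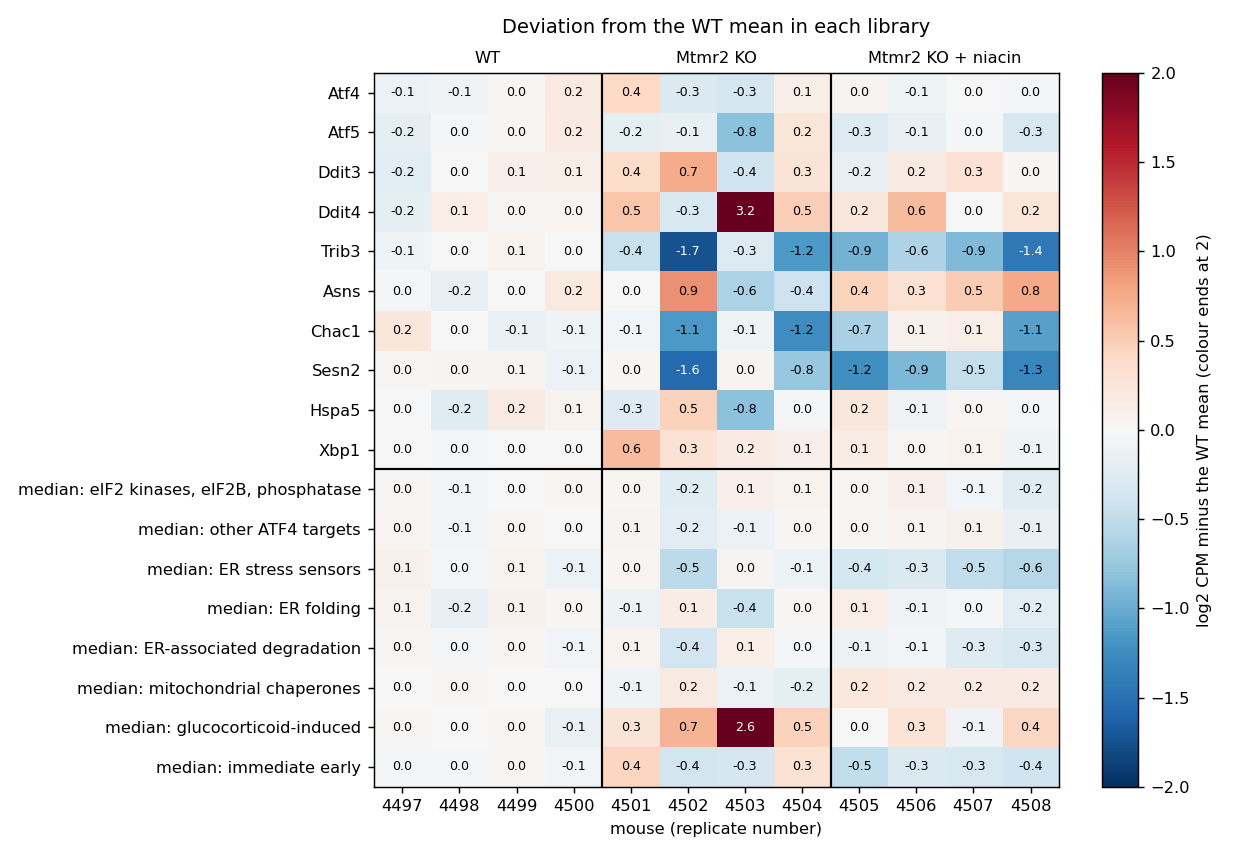
Log2 CPM of each gene minus its WT mean (colour and printed value, colour ends at 2) in each mouse (columns) for the 10 genes (upper rows) and the median of each pathway list (lower rows). The WT columns lie near 0, the library labelled KO 4503 stands out for *Ddit4* (3.2) and the glucocorticoid-induced genes (2.6), and *Trib3* and *Sesn2* are below 0 in every treated mouse.

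The ATF4-dependent genes did not share 1 direction. *Trib3* (ENSMUSG00000032715, chr2:152337422-152344032, minus strand) encodes a pseudokinase that binds ATF4 and AKT and is among the most inducible targets of ATF4. It was at 3.71, 3.99, 4.14 and 3.96 CPM in WT, at 2.89, 1.12, 3.24 and 1.73 CPM in KO and at 2.01, 2.56, 2.10 and 1.42 CPM under niacin. Every library labelled KO, treated or not, was below every WT library. The highest of them was the library labelled KO 4503, whose *Mtmr2* was in the WT range. The log2 fold change was -0.80 ± 0.29 (SE) in KO against WT (edgeR adjusted p = 0.190; exact permutation p = 0.0286) and -0.97 ± 0.29 in treated KO against WT (edgeR adjusted p = 0.106; exact permutation p = 0.0286). Without KO mouse 4502 the latter was -0.98 (edgeR adjusted p = 0.0125). With the GC and length correction the values were -0.71 and -0.75, and neither was called. Between treated and untreated KO it was -0.17 ± 0.30, with an interval of -0.75 to 0.42.

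*Sesn2*, an inhibitor of mTORC1 and a leucine sensor, stood at 9.53, 9.71, 9.77 and 8.61 CPM in WT. In KO it was at 9.68, 3.14, 9.71 and 5.53 CPM, so that the libraries labelled KO 4501 and 4503 lay in the WT range and those labelled KO 4502 and 4504 lay below it. Under niacin it was at 3.97, 5.03, 6.72 and 3.78 CPM, all below WT. The treated KO to WT log2 fold change was -0.95 ± 0.30 (SE; edgeR adjusted p = 0.114; exact permutation p = 0.0286), and -0.97 without KO mouse 4502 (edgeR adjusted p = 0.0103). The same fold change with the GC and length correction was -0.59. Treated against untreated KO gave -0.53 ± 0.30 (edgeR adjusted p = 0.341), and -0.79 without KO mouse 4502 (edgeR adjusted p = 0.0248). *Sesn2* overlaps the antisense-type gene *Gm12981*.

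*Chac1*, which encodes a glutathione-degrading enzyme, was at 2.69, 2.27, 2.07 and 2.15 CPM in WT and at 2.20, 0.986, 2.15 and 0.914 CPM in KO. Under niacin it was at 1.42, 2.43, 2.51 and 1.03 CPM. Mice 4502, 4504, 4505 and 4508 were lowest, and the groups overlapped in each comparison. Its log2 fold changes were -0.54 ± 0.34 (SE), 0.22 ± 0.35 and -0.31 ± 0.34. Over the 12 libraries, the log2 levels of *Trib3* and *Sesn2* had a Pearson r of 0.91, those of *Trib3* and *Chac1* one of 0.81, and those of *Asns* and *Sesn2* one of -0.73. After the GC and length correction these were 0.84, 0.79 and -0.62. *Trib3*, *Sesn2* and *Chac1* have 58.2%, 58.7% and 57.4% GC and *Asns* 47.7%, beside a median of 49.6% over genes tested, and the points share the groups and the GC trend of each library.

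*Asns* (ENSMUSG00000029752, chr6:7675169-7693254, minus strand) encodes asparagine synthetase, the target by which the amino acid arm is usually read. It was at 29.96, 27.2, 30.5 and 35.0 CPM in WT, at 30.3, 57.7, 19.6 and 22.9 CPM in KO and at 41.5, 37.8, 43.6 and 51.9 CPM under niacin. All treated mice were above all WT mice, and above every KO mouse other than 4502, the highest of all 12. The treated KO to WT log2 fold change was 0.51 ± 0.26 (SE; edgeR adjusted p = 0.237; exact permutation p = 0.0286), with the GC and length correction 0.38, and without KO mouse 4502 0.49 (edgeR adjusted p = 0.0249). Treated against untreated KO gave 0.42 ± 0.27 (edgeR adjusted p = 0.388). Without KO mouse 4502 this was 0.83 (edgeR adjusted p = 0.00598), where 3 of 10 genes, *Asns* higher and *Ddit4* and *Sesn2* lower, were called against 23.6% of all genes. Limma-voom called 1 of 10, *Asns*, against 11.6%, and edgeR without the libraries labelled KO 4502 and 4503 called 1 of 10, again *Asns*, against 12.5%.

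*Ddit4* (ENSMUSG00000020108, chr10:59949669-59951834, minus strand) encodes REDD1, an inhibitor of mTORC1 that is induced by ATF4, by hypoxia and by glucocorticoids. It stood at 86.2, 108, 99.4 and 100.5 CPM in WT, at 143, 79.4, 878 and 138.5 CPM in KO and at 115, 152, 98.7 and 117 CPM under niacin. The library labelled KO 4503 was 5.78-fold above the next of all libraries and 7.29-fold above the mean of the other KO mice, 120 ± 35.6 CPM (SD, n = 3). The KO to WT log2 fold change of 1.65 ± 0.57 (SE; edgeR adjusted p = 0.174; exact permutation p = 0.143) became 0.29 without this library. The treated to untreated KO log2 fold change of -1.36 ± 0.56 (edgeR adjusted p = 0.199) became 0.00 without it, and -1.70 without KO mouse 4502 (edgeR adjusted p = 0.0283), a call that still rests on the library labelled KO 4503.

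In the library labelled KO 4503, glucocorticoid-induced genes were high along with *Ddit4*: 10 of the 11 genes of that list were highest there, and their summed level was 7330 CPM, beside 4047 CPM in KO mouse 4502, 1889 and 2332 CPM in KO mice 4504 and 4501, 1182 to 1483 CPM in WT and 1065 to 1798 CPM under niacin. *Fkbp5*, which encodes a cochaperone of the glucocorticoid receptor, was at 379 CPM there, beside 56.4 to 122 CPM in the other KO mice. *Tsc22d3*, which encodes GILZ, was at 1200 CPM, beside 398 to 579 CPM. KO mouse 4502 had the second highest sum of the list and the lowest *Ddit4*. Most of that sum was *Mt1* at 1891 CPM and *Mt2* at 744 CPM. By the median log2 deviation of the list from the WT mean, mouse 4502 was at 0.68, beside 2.6 in the library labelled KO 4503. In KO against WT, 0 of the 11 genes were called by edgeR, with 7 at an unadjusted p under 0.05 beside 17.2% of all genes. DESeq2 called 5 of them against 3.71%, and limma-voom 0. With the GC and length correction edgeR called 2 against 1.16%, *Tsc22d3* and *Mt1*, both higher (adjusted p = 0.0356 and 0.0375). All 11 had a log2 fold change above 0, with a median of 1.33, also 1.33 with the correction and 0.47 without the library labelled KO 4503, where 0 were called in this comparison. In treated against untreated KO, 2 of the 11 were called, against 1.43% of all genes, and all 11 were below 0. Their median was -0.82, and -0.34 without the library labelled KO 4503. The called genes were *Mt1* and *Mt2*, the metallothionein genes, both lower (log2 fold changes -2.60 ± 0.42 (SE) and -2.73 ± 0.53; edgeR adjusted p = 0.0382 and 0.0401). Without the library labelled KO 4503 these were -2.45 and -1.98 (edgeR adjusted p = 0.0687 and 0.08), no longer called, and the calls were lost in 7 and 10 of the 12 fits that left out 1 library. Both were called by DESeq2 (adjusted p = 3.27e-08 and 0.000649), by limma-voom (0.0119 and 0.0216), with the GC and length correction (0.0190 and 0.0268) and without the libraries labelled KO 4502 and 4503 together (0.012 and 0.0268). In treated KO against WT, 0 of the 11 were called, against 0.0% of all genes. There 6 had a log2 fold change above 0 and 5 below, with a median of 0.21. Without the library labelled KO 4503, 1 of the 11, *Tsc22d3*, was called higher in this comparison, against 1.74% of all genes. The part of the 11 genes in the *Ddit4* level was not tested.

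**Figure D3:**
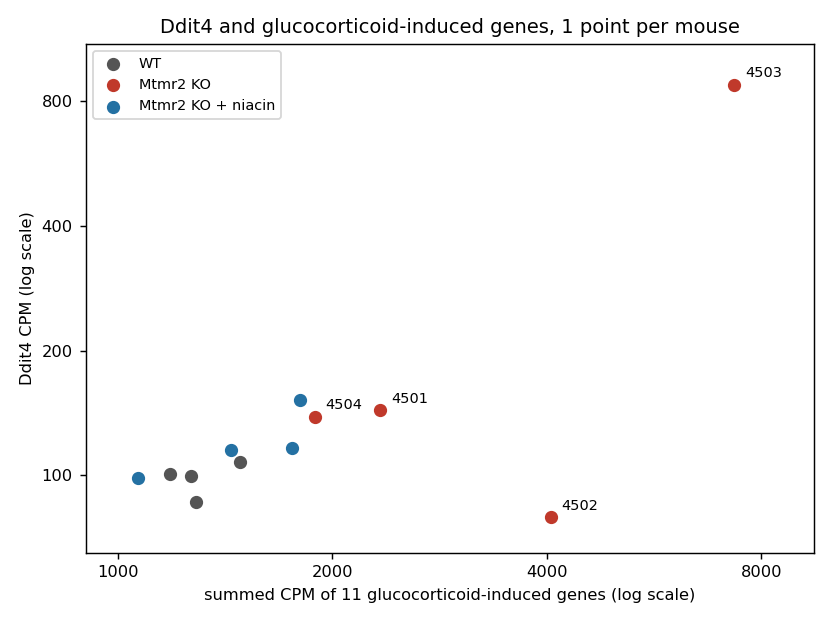
*Ddit4* CPM (y axis, log scale) against the summed CPM of 11 glucocorticoid-induced genes (x axis, log scale), 1 point per mouse, coloured by group, with KO mice numbered. The library labelled KO 4503 is highest on both axes (878 and 7330 CPM), and KO mouse 4502 is second on the x axis (4047 CPM) and lowest on the y axis (79.4 CPM). Most of the sum in KO mouse 4502 is *Mt1* and *Mt2*.

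*Hspa5* (ENSMUSG00000026864, chr2:34771970-34777547, plus strand) encodes BiP, the main Hsp70 chaperone of the ER and the usual readout of its stress. It was at 482.5, 409, 538 and 508 CPM in WT, at 401, 666, 272 and 473 CPM in KO and at 565, 461, 489 and 474 CPM under niacin. The highest and the lowest of all 12 libraries were labelled KO, 4502 and 4503. The group means were 485 ± 55.0, 453 ± 165 and 497 ± 46.8 CPM (SD, n = 4). The log2 fold changes were -0.10 ± 0.22 (SE; 95% interval -0.53 to 0.33) in KO against WT, 0.13 ± 0.22 (-0.30 to 0.56) in treated against untreated KO and 0.04 ± 0.22 (-0.39 to 0.47) in treated KO against WT. In bulk nerve, fewer cells of a type and less RNA per cell cannot be told apart.

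*Pdia6* was the gene most like *Hspa5* across libraries. Of the 5 genes with the highest Pearson r to *Hspa5* in log2 CPM over the 12 libraries, it was the first, and it encodes an ER protein disulfide isomerase (r = 0.98, and 0.975 after the GC and length correction), followed by *B230206L02Rik*, *Ccdc126*, *Chid1* and *Upp2* (r = 0.956 to 0.965). *Pdia6* stood at 201 to 250 CPM in WT, at 200.3, 340, 144 and 231 CPM in KO and at 216 to 260 CPM under niacin. *Hsp90b1*, the ER member of the Hsp90 family, was at 639 CPM in KO mouse 4502 and 240 CPM in the library labelled KO 4503, beside 290 to 355 CPM in WT. For *Atf4* the 5 most alike were *Ralb*, *Ntmt1*, *Nrm*, *Reep1* and *Desi2* (r = 0.849 to 0.887), and none is on a list used here. These correlations are a description over libraries that fall into groups and differ in depth, and 484 genes had an r over 0.8 to *Hspa5* against 19 to *Atf4*.

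**Figure D4:**
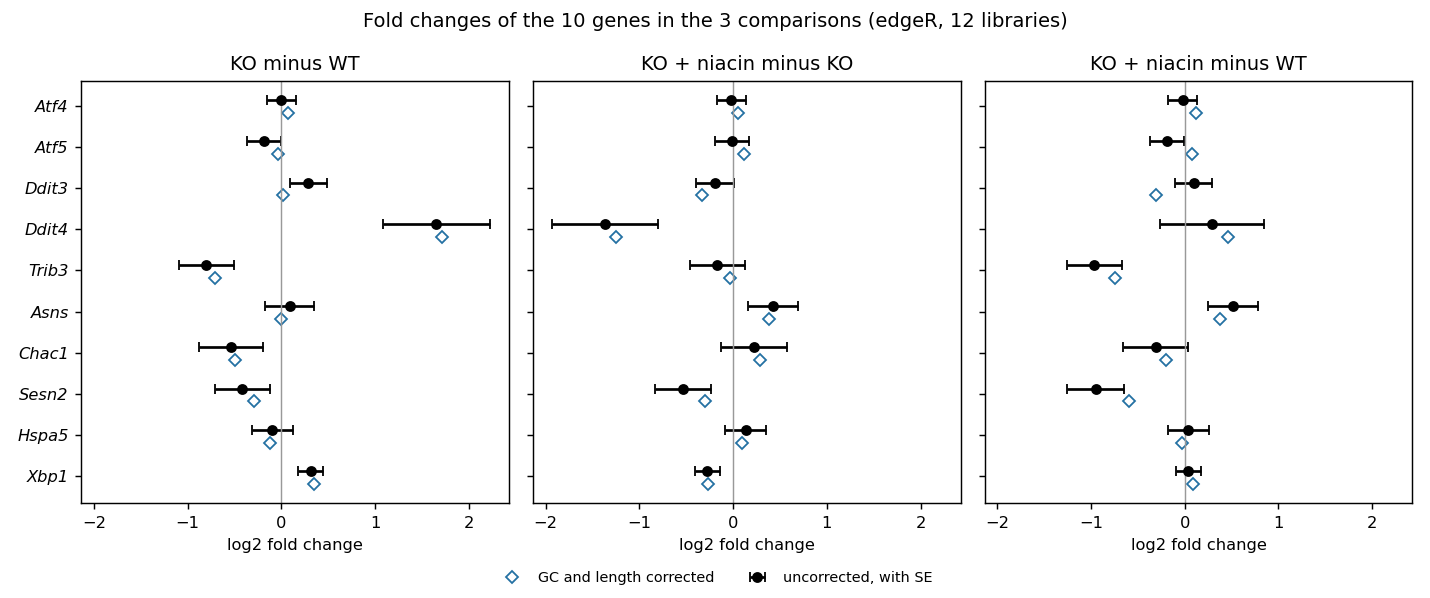
Log2 fold change (x axis) of the 10 genes (y axis) in the 3 comparisons, with bars for the SE of the uncorrected edgeR fit and open diamonds for the fit corrected for GC content and transcript length. *Atf4* and *Hspa5* lie near 0 in each panel, *Ddit4* reaches 1.65 and -1.36 in the comparisons with untreated KO, and *Trib3* and *Sesn2* lie at -0.97 and -0.95 in treated KO against WT.

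The rest of each pathway was read from lists of known genes. Of 13 genes that set eIF2 activity, 0 were called in KO against WT, 2 in treated against untreated KO and 0 in treated KO against WT, with 1, 3 and 7 at an unadjusted p under 0.05. Over all genes the shares called by edgeR were 0.267%, 1.43% and 0.0%, and those at an unadjusted p under 0.05 were 17.2%, 20.1% and 24.7%. These shares apply to each list here. DESeq2 over all libraries called 0, 3 and 2 of them, against 3.71%, 6.22% and 7.0% of all genes, and limma-voom 0, 4 and 10, against 0.626%, 11.6% and 42.4%. With the GC and length correction 0, 2 and 0 were called, against 1.16%, 2.68% and 0.0% of all genes. *Ppp1r15a*, which encodes the stress-induced phosphatase subunit GADD34, was lower under niacin, at 29.3 to 45.5 CPM as compared with 50.6 to 83.1 CPM in untreated KO and 58.6 to 63.2 CPM in WT (log2 fold change -0.94, edgeR adjusted p = 0.0401). *Eif2ak2*, which encodes the kinase PKR, was higher, at 18.1 to 23.4 CPM as compared with 10.6 to 16.0 CPM (log2 fold change 0.64, edgeR adjusted p = 0.0467). Both edgeR calls were lost without the library labelled KO 4503 (adjusted p = 0.0747 and 0.107; log2 fold changes -0.88 and 0.55) and were lost in 9 and 10 of the 12 fits that left out 1 library, and both were made with the GC and length correction (adjusted p = 0.0190 and 0.028), by DESeq2, by limma-voom and without the libraries labelled KO 4502 and 4503 together (adjusted p = 0.00719 and 0.017). *Ppp1r15a* and *Eif2b5*, a subunit gene of eIF2B, had the highest levels per kilobase of the list, 19.5 and 17.1 CPM per kb.

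Of 38 other ATF4 targets, 36 passed the filter on low counts, and 0 were called in any comparison by edgeR without the correction, with 4, 13 and 11 at an unadjusted p under 0.05. With the GC and length correction 1, 1 and 0 were called, against 1.16%, 2.68% and 0.0% of all genes. They were *Stc2*, lower in KO against WT (-1.16, edgeR adjusted p = 0.0438), and *Slc7a5*, lower in treated against untreated KO (-1.56, edgeR adjusted p = 0.0321). DESeq2 called 1, 3 and 2 of them, against 3.71%, 6.22% and 7.0% of all genes. Limma-voom called 0, 8 and 18 of the 36, against 0.626%, 11.6% and 42.4%. Their median log2 fold changes were 0.00, 0.11 and 0.02, and 0.03, 0.13 and 0.09 with the correction. Without the library labelled KO 4503, 0 were called in each comparison. Without the correction, the smallest p belonged to *Stc2*, a secreted stanniocalcin gene, in KO against WT (-1.20, edgeR adjusted p = 0.0684), to *Slc7a5*, the LAT1 amino acid transporter gene, in treated against untreated KO (-1.76, edgeR adjusted p = 0.0516), and to *Shmt2*, a mitochondrial serine enzyme gene, in treated KO against WT (-0.72, edgeR adjusted p = 0.0877). *Slc7a5* was at 192, 63.0, 426 and 143 CPM in KO and at 49.9 to 82.4 CPM under niacin, with the library labelled KO 4503 again highest. *Slc3a2*, the partner of LAT1, was also highest there, at 531 CPM beside 117 to 285.5 CPM in the other libraries. *Phgdh*, the first enzyme of serine synthesis and with *Slc3a2* the most abundant of the list per kilobase (107 and 67.9 CPM per kb), was at 296.5 to 444.5 CPM in KO, 227 to 248 CPM in WT and 163 to 249 CPM under niacin, with log2 fold changes of 0.54 and -0.70 (edgeR adjusted p = 0.149 and 0.0577).

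Of the 8 ER stress sensors and their proteases, the 21 ER chaperones and folding enzymes, the 14 genes of ER-associated degradation and the 8 mitochondrial chaperones and proteases, 0 were called in each comparison, also with the GC and length correction. Their median log2 fold changes in KO against WT were -0.10, -0.02, -0.04 and -0.12, and with the correction -0.04, -0.06, -0.02 and -0.07. In treated against untreated KO they were -0.21, -0.01, -0.04 and 0.12, and with the correction -0.12, -0.05, -0.21 and 0.12. In treated KO against WT they were -0.45, -0.01, -0.26 and 0.16, and with the GC and length correction -0.25, -0.08, -0.14 and 0.06. Genes at an unadjusted p under 0.05 numbered 2, 1, 1 and 1, then 2, 3, 5 and 2, then 6, 7, 5 and 3, beside 17.2%, 20.1% and 24.7% of all genes. DESeq2 called 1, 0, 0 and 0, then 0, 0, 1 and 1, then 2, 2, 1 and 0, beside 3.71%, 6.22% and 7.0% of all genes. Limma-voom called 1, 0, 0 and 0, then 2, 2, 3 and 2, then 6, 9, 10 and 6, beside 0.626%, 11.6% and 42.4%. Without the library labelled KO 4503, edgeR called *Sdf2l1* and *Edem2* lower in treated KO against WT, 2 of these genes, against 1.74% of all genes. In KO against WT the genes with the smallest p were *Creb3l1*, an ER-bound transcription factor gene (-1.19, edgeR adjusted p = 0.0519, all libraries labelled KO below all WT libraries), *Dnajb11*, a BiP cochaperone gene (-0.35, adjusted p = 0.267), *Edem1*, a mannosidase-like degradation gene (-0.40, adjusted p = 0.184), and *Trap1*, a mitochondrial Hsp90 gene (-0.34, adjusted p = 0.194). In treated against untreated KO they were *Ern1*, which encodes IRE1 (-0.38, adjusted p = 0.196), *Dnajb9*, a BiP cochaperone gene (-0.32, adjusted p = 0.13), *Derl3*, of the Derlin family (-1.58, adjusted p = 0.0931), and *Trap1* (0.41, adjusted p = 0.101). In treated KO against WT they were *Atf6b* (-0.74, adjusted p = 0.0833), *Sdf2l1* (-0.87, adjusted p = 0.0833), *Edem2* (-0.73, adjusted p = 0.0847) and *Lonp1*, a mitochondrial protease gene (-0.42, adjusted p = 0.134). The most abundant per kilobase were *Creb3* and *Mbtps1* (25.5 and 19.6 CPM per kb), *Calr* and *P4hb* (168 and 131), *Os9* (87.4), and *Hspd1* and *Hspa9* (54.0 and 41.9).

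By summed level, without the GC and length correction, the libraries labelled KO 4502 and 4503 lay at opposite ends of the ER folding list. Of its 21 genes, 8 were highest in mouse 4502 and 11 were lowest in the library labelled KO 4503. The other way, 3 were lowest in mouse 4502 and 1 was highest in the library labelled KO 4503. The summed levels were 3844 and 2561 CPM, beside 3055 to 3654 CPM in WT and 2830 to 3810 CPM under niacin. Mouse 4502 also had the highest sums of macrophage markers (1614 CPM, beside 676 to 1256 CPM) and of neuronal markers (254 CPM, beside 61.3 to 115 CPM). Skeletal muscle markers summed to 3671 and 3675 CPM in treated mice 4506 and 4507 and to 35.5 to 121 CPM elsewhere. None of the 10 genes was highest or lowest in mice 4506 and 4507, nor in mice 4498, 4500 and 4505. Adipocyte markers summed to 4143 to 5327 CPM in WT, 1112 to 7622 CPM in KO and 3718 to 7243 CPM under niacin. The part of these cell types in the levels of the 10 genes was not tested.

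Of 9 immediate early genes, which respond to handling and injury, 1 was called, in treated against untreated KO, against 1.43% of all genes. It was *Junb*, lower in treated KO (log2 fold change -1.43, edgeR adjusted p = 0.0401). *Junb* was at 7.64 to 13.8 CPM under niacin, as compared with 18.2 to 51.4 CPM in untreated KO and 16.9 to 22.3 CPM in WT. Without the library labelled KO 4503 its log2 fold change was -1.03 (edgeR adjusted p = 0.0687), and the call was lost in 10 of the 12 fits that left out 1 library. DESeq2 and limma-voom called it with all libraries, as did edgeR with the GC and length correction (-1.25, adjusted p = 0.0229). In treated KO against WT *Junb* was called lower without that library, against 1.74% of all genes. The median of the list was -0.07 in KO against WT, -0.42 in treated against untreated KO and -0.21 in treated KO against WT. *Nr4a1* and *Jun* had the highest levels per kilobase, 31.9 and 12.1 CPM per kb.

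**Figure D5:**
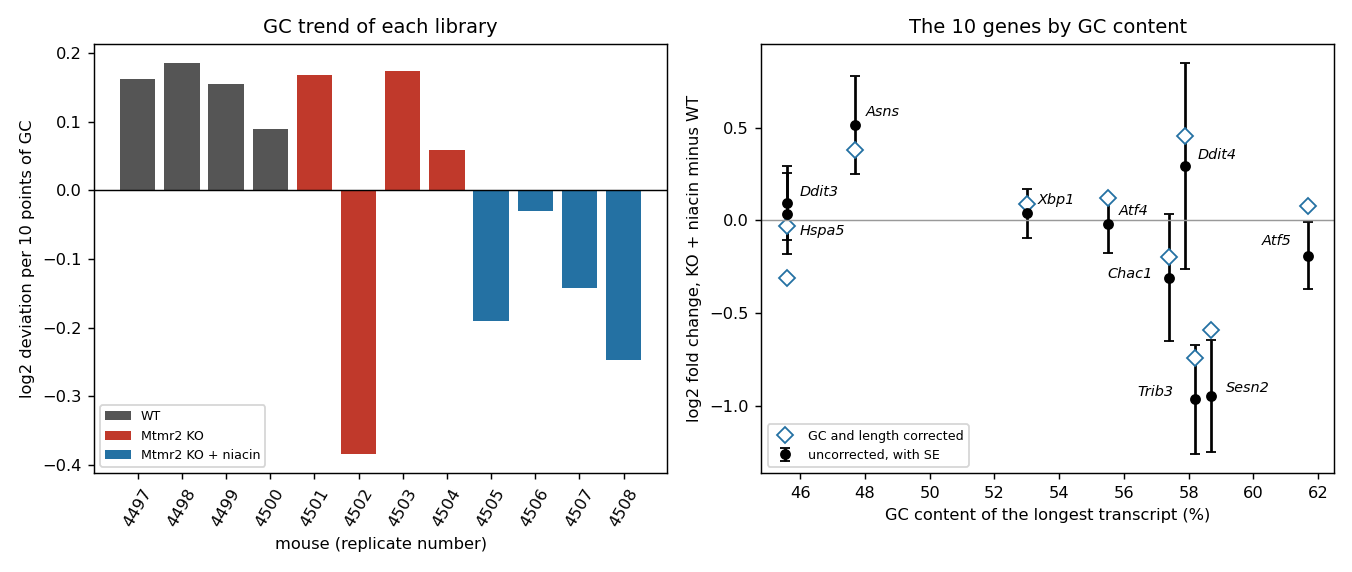
Left, log2 deviation of each library per 10 points of GC content (bars from 0, coloured by group). Right, log2 fold change of treated KO against WT (y axis) by GC content of the longest transcript (x axis) for the 10 genes, with the SE, and open diamonds for the corrected values. *Trib3* and *Sesn2* have 58.2% and 58.7% GC and lie at -0.75 and -0.59 after the correction.

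With the GC and length correction, 0 of 10 were called in each comparison, against 1.16%, 2.68% and 0.0% of all genes. The groups of *Xbp1* and *Trib3* in KO against WT stayed apart. In treated KO against WT the groups of *Trib3*, *Sesn2*, *Asns* and *Ddit4* did not overlap. The share of all genes with groups apart was taken only without the correction, 9.32% and 31.4% in these comparisons. How many genes stay apart after the correction was not tested, so no result about the members is drawn from this. GC content, library and group move together in treated KO against WT, and their parts cannot be told apart.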

How the data were processed

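One sciatic nerve per mouse gave a polyA-selected library, sequenced in pairs on an Illumina HiSeq. Per the submitters' processing notes, CASAVA 1.9, STAR and DESeq2 were used with the build GRCm38. How reads were counted per gene, with which gene models and whether by strand, is in none of the sources used. The deposited values are raw read counts per gene in 12 libraries, made by the authors without normalisation. The deposited DESeq2 tables also hold the authors' own fold changes and p-values, which were not used; only their gene symbols were.

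Groups came from the labels. Genes were kept by filterByExpr (17257 of 43432), scaled by TMM and tested with edgeR 4.0.16 (quasi-likelihood, two-sided, all 12 libraries in 1 fit, Benjamini-Hochberg over all genes tested, called at an adjusted p under 0.05). An interval of 95% is the log2 fold change ± its SE times the normal quantile. Mean log2 CPM (prior count 2) of single genes was compared by an exact permutation test. Alternatives were DESeq2 1.42.0, limma-voom 3.58.1, DESeq2 size factors, fits on 2 groups, no filter, *Xist* as a covariate and each library left out; the correction for GC content and length (natural splines, 5 degrees of freedom, longest GENCODE M21 transcript) and the fit without the libraries labelled KO 4502 and 4503 were chosen after seeing the data. Scripts were tested on simulated data.

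The 10 genes and all gene lists were chosen with earlier results of these data known. In the text all 10 genes were named, with *Mtmr2*, the called genes of each pathway list or else the one with the smallest p, the 2 most abundant per kilobase, and the 5 genes most like *Atf4* and *Hspa5*; *Pdia6* (beyond that rule), *Hsp90b1*, *Fkbp5* and other list genes named beside a result were picked after their values were seen. Some genes that the rule names are not reported here.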

Additional observations from a re-analysis of the deposited data

Results flagged for a closer look

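In groups of 4 mice, a value was singled out when its gap to the next, as a share of the range of the group, exceeded Dixon's 95% critical value. Over 132 groups, 6 values were, where chance gives about 1 in 20. *Ddit4* in the library labelled KO 4503 was at 878 CPM beside 79.4 to 143 CPM in the other KO mice, a gap of 0.92 of the range. In KO mouse 4502, *Shmt2* was at 14.1 CPM beside 25.0 to 26.5 CPM and *Mbtps1* at 164 CPM beside 237 to 248 CPM. In WT mouse 4498, *Mt1* was at 329.5 CPM beside 209 to 213 CPM and *Mt2* at 236.5 CPM beside 127 to 131 CPM. In WT mouse 4499, *Nr4a1* was at 111 CPM beside 97.6 to 99.3 CPM. The cause of none of these was tested.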

How the results depend on the processing

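No paired analysis was possible because the groups share no mouse numbers. In KO against WT, 0 of the 10 genes were called under every alternative run. In niacin-treated against untreated KO, 1 gene was called by limma-voom and 1 without the libraries labelled KO 4502 and 4503, and with single libraries left out the count ran from 0 to 3, the 3 without KO mouse 4502. In treated KO against WT, 2 genes were called by DESeq2 over all 12 libraries, 3 by DESeq2 on the 2 groups, 3 by limma-voom, 3 by edgeR on the 2 groups and 3 without the libraries labelled KO 4502 and 4503, and with single libraries left out from 0 to 3, the 3 without KO mouse 4502; the genes are named in the report. Log2 fold changes that turned sign were not called in either fit. In KO against WT, *Atf4* was at -0.015 by DESeq2 over all libraries, -0.022 by DESeq2 on the 2 groups and -0.058 with no filter; *Asns* was at -0.19 by limma-voom, -0.001 with no filter, -0.003 with the GC and length correction and -0.197 without the libraries labelled KO 4502 and 4503; *Atf5* was at 0.05 without those mice. In treated against untreated KO, *Atf4* was at 0.048 and *Atf5* at 0.117 with the correction, and *Atf5* at 0.005 by DESeq2 on the 2 groups and 0.003 with no filter. In treated KO against WT, the correction gave *Atf4* 0.119, *Atf5* 0.076, *Ddit3* -0.31 and *Hspa5* -0.029; limma-voom gave *Atf4* 0.008 and *Hspa5* -0.002; no filter gave *Hspa5* -0.014 and *Xbp1* -0.013.

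With single libraries left out, the KO to WT values that turned sign ran from -0.161 to 0.095 for *Atf4*, -0.341 to 0.267 for *Asns* and -0.344 to 0.081 for *Hspa5*. Those of treated against untreated KO ran from -0.121 to 0.14 for *Atf4*, -0.172 to 0.164 for *Atf5*, -1.697 to 0.001 for *Ddit4* (the last without the library labelled KO 4503), -0.398 to 0.063 for *Trib3* and -0.045 to 0.364 for *Hspa5*. Those of treated KO against WT ran from -0.059 to 0.04 for *Atf4*, -0.039 to 0.089 for *Hspa5* and -0.005 to 0.076 for *Xbp1*. No call was lost under any alternative, since none was made, and the cause of the gained calls was not tested beyond the libraries left out. *Trib3* and *Chac1* rest on 19 to 116 reads a library, which limits their precision.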
